A study of Caenorhabditis elegans with 2 samples.

Results

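The heterochronic genes are the developmental clock of *Caenorhabditis elegans*: they set which larval stage a cell takes itself to be in, and mutants skip or repeat stage-specific divisions. The genes were taken by name, as known members of the pathway, and the rule uses no peak value, although earlier results of these data were known when the list was made: *lin-14*, *lin-28*, *lin-29*, *lin-41*, *lin-42*, *lin-46*, *hbl-1*, *daf-12*, *dre-1* and *lep-2*, which are 10 of the 19973 protein-coding genes annotated on the 6 chromosomes. The data are chromatin immunoprecipitation sequencing (ChIP-seq) peak lists for EGL-18, a transcription factor of the GATA family that is needed for seam cells, the stem-like cells of the epidermis. The lists came from 1 group of 2 biological replicates of whole young adults of strain RW12252, collected 63 h after growth from starved, synchronised first-stage larvae. Every animal carried st12252[egl-18::TY1::EGFP::3xFLAG] IV, an allele made with CRISPR at the gene's own locus on chromosome IV, and an anti-GFP antibody recovered the fusion protein with sheared chromatin of 200 to 800 bp. There is no second strain, stage or treatment, no control library was analysed here, and a list from whole animals does not tell in which cells a site was bound.

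In the known pathway, the early factors LIN-14, LIN-28 and HBL-1 hold larval fates, and small RNAs such as *lin-4* and the *let-7* family lower them in turn. LIN-41 then holds back LIN-29 until the larva-to-adult switch, when seam cells leave the cell cycle, fuse and secrete the adult cuticle. Seam cells are the textbook setting of this clock, and EGL-18 is known as a factor that keeps their fate.

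Peaks were collected from each gene body and the 5000 bp upstream of it (the window), by the position of the summit, on assembly ce11. The irreproducible discovery rate (IDR) estimates, from the ranks of peaks in a pair of inputs, the rate of irreproducible peaks at a given cut-off. A ranked list holds every peak with an IDR, and a thresholded list holds those that passed. Which inputs the series lists compared is not stated, and the replicates could not be tied to them, so a series score is not by itself a measure of agreement between the replicates. The height of a peak is the authors' signal value, on a scale that is not stated. The score runs to 1000 and rises as the IDR falls: 540 stands for an IDR of 0.05 and 830 for 0.01. The series ranked list held 117695 peaks, the ranked lists of replicates 1 and 2 held 64911 and 54253, and the series thresholded list held 699. The ranked peaks of the series covered 31.6% of the genome, so a ranked peak in a window is common (10 of 10 members, 95.1% of all protein-coding genes), and only the height, the score and the replicates separate strong from weak ones. Since a peak list holds no read counts, library depth is unknown.

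The sequences under the peaks that carry the main findings are shown first, on the forward strand of ce11, 5′ to 3′ (RefSeq sequence of WBcel235, the same assembly). Capitals mark a GATA factor site in either orientation, that is AGATAA or AGATAG, or else TGATAA or the same with G at its end, or the reverse complement of any of these. The first 4 are the peaks of score 540 or more in the series ranked list with such a site within 75 bp of the summit. In the other ranked list of the series, the *daf-12* peak of these scores 376 and no *dre-1* peak scores above 498. The *lin-46* sequence (chrV:12967983-12968191) leaves out 67 bases of untranslated sequence at its left end. The others are *lin-42* (chrII:1246891-1247166), *daf-12* (chrX:10642635-10642910) and *dre-1* (chrV:6541713-6541988).
lin-46: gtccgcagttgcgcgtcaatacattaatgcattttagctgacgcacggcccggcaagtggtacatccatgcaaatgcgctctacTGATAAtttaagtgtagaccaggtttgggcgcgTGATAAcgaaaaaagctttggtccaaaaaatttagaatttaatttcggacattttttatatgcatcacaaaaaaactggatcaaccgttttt
lin-42: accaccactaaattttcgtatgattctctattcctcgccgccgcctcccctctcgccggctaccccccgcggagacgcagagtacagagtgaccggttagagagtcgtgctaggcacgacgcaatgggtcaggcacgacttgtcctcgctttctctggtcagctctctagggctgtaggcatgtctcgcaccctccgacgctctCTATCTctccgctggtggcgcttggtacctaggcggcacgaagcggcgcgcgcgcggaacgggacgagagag
daf-12: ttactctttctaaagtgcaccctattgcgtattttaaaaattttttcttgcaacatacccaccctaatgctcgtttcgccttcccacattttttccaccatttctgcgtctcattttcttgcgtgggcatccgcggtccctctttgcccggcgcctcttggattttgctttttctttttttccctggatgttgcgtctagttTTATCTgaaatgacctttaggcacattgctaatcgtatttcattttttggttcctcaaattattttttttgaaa
dre-1: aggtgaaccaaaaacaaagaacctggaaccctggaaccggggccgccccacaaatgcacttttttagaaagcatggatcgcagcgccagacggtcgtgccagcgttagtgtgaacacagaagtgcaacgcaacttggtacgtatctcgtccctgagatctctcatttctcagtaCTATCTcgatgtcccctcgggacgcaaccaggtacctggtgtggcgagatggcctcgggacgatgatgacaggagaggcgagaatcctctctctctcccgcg

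The next 3 hold no site in capitals and show what else lies under members' peaks. They are the peak at the start of *lin-14* (chrX:11465343-11465559, up to the base before the gene), a peak in an intron of *lin-29* (chrII:11923142-11923417) and the strongest peak of *lep-2* (chrIV:991362-991637).
lin-14: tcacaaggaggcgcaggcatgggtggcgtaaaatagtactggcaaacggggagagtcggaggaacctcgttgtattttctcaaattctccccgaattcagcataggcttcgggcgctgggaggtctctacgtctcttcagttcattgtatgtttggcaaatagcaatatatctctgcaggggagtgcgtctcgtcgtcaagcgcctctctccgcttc
lin-29: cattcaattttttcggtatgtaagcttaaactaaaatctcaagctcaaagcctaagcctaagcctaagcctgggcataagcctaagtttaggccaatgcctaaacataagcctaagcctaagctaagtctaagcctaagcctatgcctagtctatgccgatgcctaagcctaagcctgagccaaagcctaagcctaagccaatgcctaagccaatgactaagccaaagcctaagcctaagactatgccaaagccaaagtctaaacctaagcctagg
lep-2: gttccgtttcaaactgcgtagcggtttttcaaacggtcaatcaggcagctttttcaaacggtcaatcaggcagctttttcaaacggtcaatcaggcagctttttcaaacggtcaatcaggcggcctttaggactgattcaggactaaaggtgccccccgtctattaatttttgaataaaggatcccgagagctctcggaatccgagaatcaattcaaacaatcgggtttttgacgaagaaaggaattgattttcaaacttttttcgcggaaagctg

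EGL-18 peaks that passed the IDR threshold of the series lay in the windows of 3 of the 10 genes, *lin-46*, *lin-29* and *lin-42*, against 5.47% of all protein-coding genes. When each peak was given to the gene of the nearest protein-coding start alone, only *lin-42* was left (1 of 10, against 2.6% of all genes), since the *lin-29* and *lin-46* peaks lay closer to the starts of *hmg-12* and *R186.8*. The windows of heterochronic genes are long (6876 to 35968 bp, median 15292, against 7027 for all genes), and among genes with windows of 10000 bp or more the counts were 2 of 8 members and 8.14% of genes. With the conservative thresholded list of the series, *lin-14* joined them, so that 4 of 10 had such a peak, against 4.84% of genes. With windows of 10000 bp or more, these were 3 of 8 members and 6.78% of genes. None of the 10 had a peak in the thresholded list of either replicate alone, where 1.59% (replicate 1) and 1.89% (replicate 2) of genes did. The peaks of *lin-46*, *lin-29*, *lin-42* and *lin-14* were thus in thresholded lists made from both replicates and in neither list made from 1.

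A ranked peak with a score of 540 or more was present in 7 of the 10 windows, all but those of *hbl-1*, *lep-2* and *lin-41*, against 18.3% of all genes. Among the genes with long windows these counts were 5 of 8 and 28.7%. In the replicates' own ranked lists such a score was reached in 0 of 10 windows in replicate 1 (background 3.74%) and in 2 of 10, *lin-14* and *lin-29*, in replicate 2 (3.55%). At a score of 830 or more the count was 3 of 10 (5.75% of genes), the same 3 as in the thresholded list. In the other series ranked list 6 of 10 reached 540 (14.8%), all of the 7 but *dre-1*. With long windows only, the count at 830 was 2 of 8 (8.35% of such genes), and that in the other series list was 4 of 8 (23.9%). These are counts of 10 genes in 1 group, which no test accompanies.

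In all, 257 ranked peaks had their summit in a window of a member, none of them in more than 1, and 12 of them scored 540 or more. Among these 12, a *dre-1* peak of height 2.08 overlaps another *dre-1* peak with the same score of 583 and was counted separately. The density was 14.7 ranked peaks per 10 kb of member window, against 11.9 over the windows of all protein-coding genes and 11.7 over the genome. For peaks of score 540 or more it was 0.687 per 10 kb, against 0.278 over all windows. The median height of the 257 peaks was 24.5, against 22.9 for all ranked peaks and 81.6 for the thresholded list. Only the highest peak of *lin-46* lay above the median of the thresholded list, and no member peak came near that list's maximum of 544. The highest deposited −log10 q of a member peak was 0.815, so that 0 of 257 reached a q of 0.05. A q that low was rare throughout, with 80 of all 117695 ranked peaks and 50 of the 699 thresholded ones.

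The number of ranked peaks followed the length of the window in the main: 47 in *lin-14*, 42 in *daf-12*, 38 in *lin-42*, 33 in *lin-29*, 24 in *dre-1*, 19 in *hbl-1*, 16 in *lin-41*, 15 each in *lep-2* and *lin-46*, and 8 in *lin-28*. Per 10 kb the lowest density was that of *lin-28* (9.79) and the highest that of *lin-46* (21.8), whose window is the shortest. Peaks found in both replicates were most numerous in *lin-14* (20), *lin-42* (17) and *daf-12* (13), and *lin-28* had 0. Of all member summits, 2 lay within 150 bp of a small nucleolar RNA gene (*T25C12.12* and *T25C12.11*), both in the window of *lin-14*, with heights of 29.2 and 20.9.

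**Figure D1:**
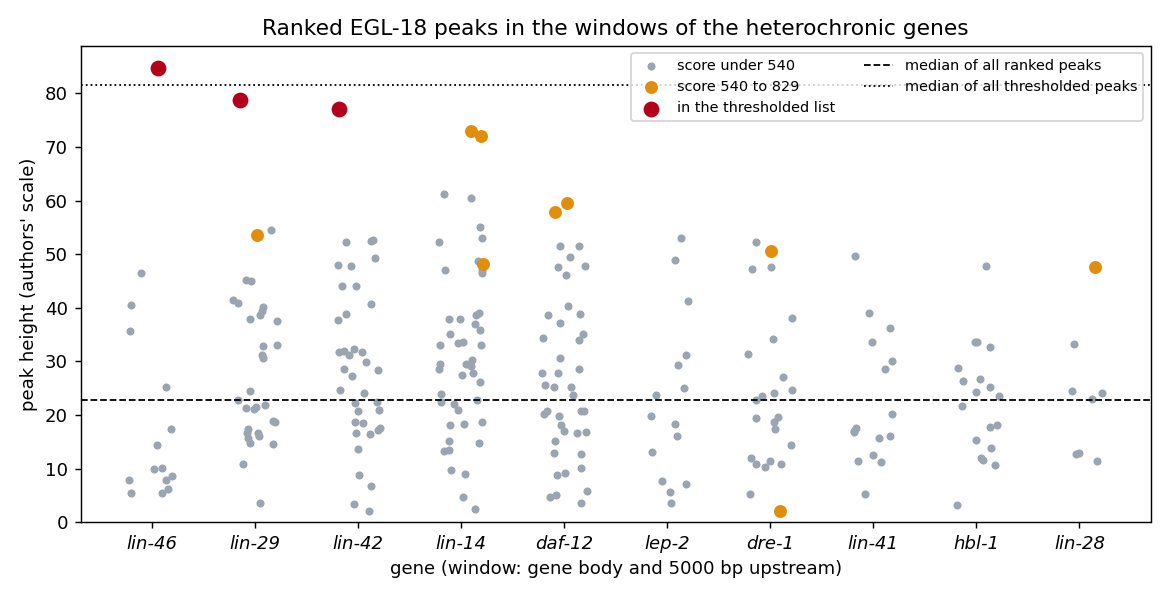
Heights (authors' scale, linear axis) of all 257 ranked series peaks, by gene in the order of the strongest peak, coloured by score class, with dashed and dotted lines at the medians of all ranked peaks (22.9) and all thresholded peaks (81.6). The highest points are those of *lin-46* (84.7), *lin-29* (78.8), *lin-42* (77.1) and *lin-14* (73.1), and only that of *lin-46* is above the dotted line.

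Among the DNA-binding factors, *lin-29* had the highest peak. LIN-29 is a zinc finger factor that drives the larva-to-adult switch of the epidermis. Its strongest peak (chrII:11917650-11917925, minus-strand gene) had a height of 78.8 and a score of 1000, at rank 506 of the series list. It lay in the 3′ untranslated region, 146 bp from the 3′ end of the gene, and the nearest start was that of the neighbouring gene *hmg-12*, 1275 bp away. In replicate 1 the place had a height of 37.0 and a score of 229, and in replicate 2 a height of 46.4 and a score of 797, and it was the strongest place of the window in both. No GATA site lay within 75 bp of the series summit. The peak holds 1 site further out, at −111 bp from that summit on the forward strand, and 1 lay within 75 bp of the summit of replicate 1. A second peak of *lin-29* that reached 540, in an intron (height 53.5, score 558), is the one whose sequence is shown above: it holds 16 copies of the telomere-type 6-mers TTAGGC or GCCTAA. Of all 117695 ranked peaks, 67 (0.0569%) held as many, as did 6 (0.213%) of the 2820 with a score of 540 or more, and this count was made after the sequence had been seen.

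LIN-14, a DNA-binding nuclear protein and the first known target of a microRNA, had 47 ranked peaks over 25312 bp, more than any other member, and 3 of them scored 540 or more. The highest (chrX:11475831-11476106, height 73.1, score 817, rank 688) lay in an intron, 4392 bp upstream of the gene's internal start. Its height was 42.1 in replicate 1 and 30.7 in replicate 2, and it is the *lin-14* peak of the conservative list, where its score was 850. The second (height 72.1, score 796) lay 79 bp upstream of the first start of *lin-14*, the only peak of score 540 or more within 500 bp of a member's own start. Replicate 1 had a height of 40.8 there and replicate 2 one of 23.7, so that it stood among the top 1.38% of replicate 1's peaks but only the top 17.0% of those of replicate 2. The third (height 48.2, score 549) was intronic. In replicate 2 the highest peak of the gene was at another intronic place (chrX:11469071-11469334, height 40.2, score 556). None of these had a GATA site within 75 bp of its summit.

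DAF-12, a nuclear hormone receptor bound by the steroid dafachronic acids, has the longest window (35968 bp, 9 annotated starts) and held 42 ranked peaks, of which 33 were in introns and 0 in the 5000 bp upstream. In the series ranked list, peaks of score 540 or more lay in introns at chrX:10638121-10638396 (height 59.6, score 616) and chrX:10642635-10642910 (height 58.0, score 550). The replicates ranked this pair in opposite order. The first was 25.3 high in replicate 1 and 34.7 in replicate 2, and the second, which has a GATA site 64 bp from its summit, was 35.68 and 18.96 high. The replicate 1 peak was matched to the first by overlap only: its summit was at base 10638142, and the series summit was at 10638259. The first also holds GATA sites, the nearer of them 78 bp from its summit. In the other series ranked list the first scored 540 and the second only 376. There an intronic peak at chrX:10652192-10652467 (height 51.6) scored 635, against 403 in the series ranked list.

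HBL-1, a zinc finger protein related to fly Hunchback, stood low. Its strongest peak (chrX:5818197-5818472, height 47.8, score 436) lay 3807 bp upstream of the gene, inside the non-coding RNA gene *F13D11.21*. Replicate 1 had a height of 29.7 there, and replicate 2 had no ranked peak at that place.

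**Figure D2:**
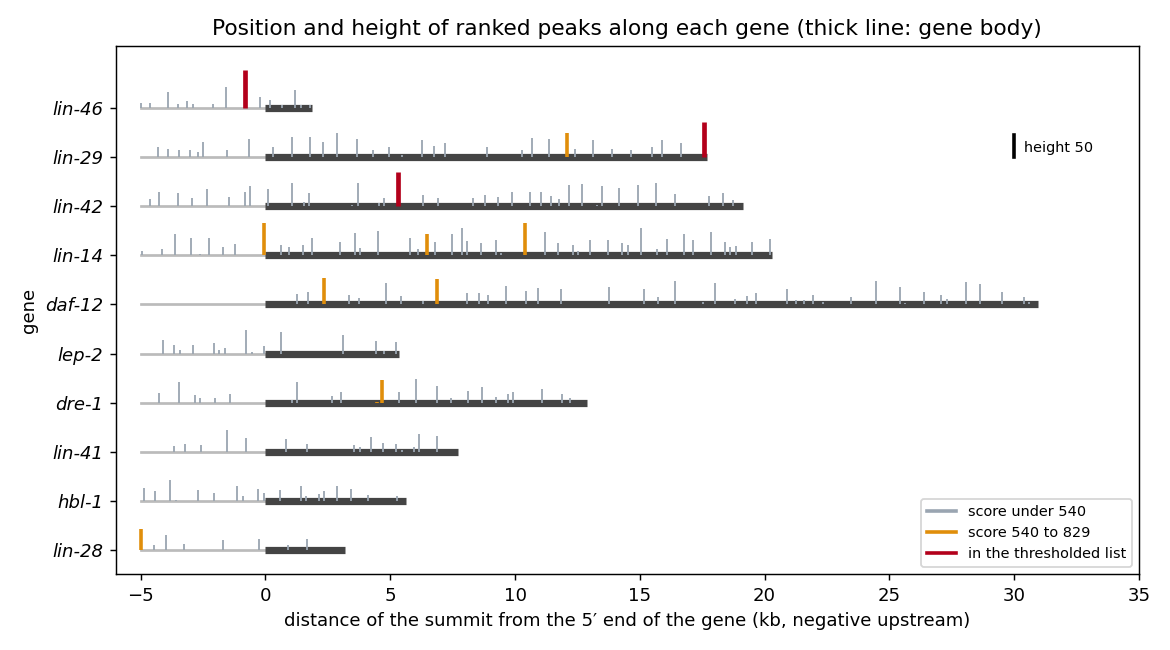
Position of each ranked summit relative to the 5′ end of its gene (kb, negative upstream; thick line, gene body), with bar length proportional to height and colour by score class. High peaks lie inside the bodies of *lin-29*, *lin-42*, *lin-14* and *daf-12*, and upstream of *lin-46*.

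Among genes that act on RNA, *lin-28* had the only peak of score 540 or more. LIN-28 binds RNA and blocks the processing of *let-7*. Its strongest peak (chrI:8415660-8415935, height 47.7, score 590) lay 4994 bp upstream, at the edge of the window and inside the gene *F02E9.7*, with the start of *sin-3* closer, at 1018 bp. Replicate 1 had a height of 37.2 there, its only ranked peak in the *lin-28* window, and replicate 2 had none. LIN-41, a TRIM-NHL protein that represses messenger RNAs, had its strongest peak 1528 bp upstream (chrI:9343886-9344161, height 49.6, score 377), at 26.1 in replicate 1 and 21.7 in replicate 2, and that place was the strongest of the window in neither. LEP-2, a Makorin protein that lowers LIN-28 and times the shaping of the male tail tip, had its strongest peak 783 bp upstream of its start (height 53.0, score 437). The sequence of that peak, shown above, holds 1 stretch of 20 bases 4 times, as 1.22% of all ranked peaks and 6.35% of those of score 540 or more hold a 20-mer at least as often. Its heights were 17.7 in replicate 1, near the middle of that list (50.7% of its peaks were as high), and 24.1 in replicate 2.

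Of the remaining genes, *lin-46* had the highest peak of all 10. LIN-46 is a gephyrin-like protein that acts downstream of LIN-28. Its peak (chrV:12967916-12968191) had a height of 84.7 and a score of 1000, at rank 394 of 117695, and lay 801 bp upstream of *lin-46*. The summit was 72 bp upstream of the start of *R186.8*, and it also lay in the promoter of *R186.3* (from 1000 bp before to 200 bp after a start), so that the list does not tell these genes apart. Replicate 1 had a height of 34.1 with a score of 39 (rank 2552), and replicate 2 had 48.0 with a score of 309 (rank 309). It is the thresholded peak with most GATA sites among the 3, with TGATAA at 13 and 46 bp from the summit. Only 1.87% of protein-coding genes had a thresholded summit in their promoter, and *lin-46* was the 1 member that did. The median height over all 15 peaks of its short window was 10.1, the lowest of the 10 genes.

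The genes next to *lin-46* in the order of strongest peaks were *C42D8.1* and *C42D8.9* just above and *Y8A9A.2* and *fbxb-99* (height 84.7) just below, while *hrg-9*, *R186.3*, *pnn-1* and *R186.8* share its peak. In all, 565 of the 18999 genes with a ranked peak had a higher one.

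LIN-42, the worm relative of the clock protein Period, whose level cycles with the molts, had its strongest peak (chrII:1246891-1247166, height 77.1, score 959, rank 545) in an intron. The summit was 2994 bp upstream of the nearest of the gene's 5 starts, inside the non-coding RNA genes *F47F6.13* and *F47F6.15*. It had a height of 46.0 in replicate 1, the highest member peak of that list, and 32.8 in replicate 2, where an intronic place 1030 bp from a start was marginally higher (32.9). The bases within 75 bp of the summit were 60.3% G and C, the highest of the members' strongest peaks, with a GATA site 66 bp away. DRE-1, an F-box protein that targets others for degradation, had peaks of similar height at chrV:6540313-6540588 (52.2, score 317) and chrV:6541713-6541988 (50.7, score 583). The first had a height of 26.9 in replicate 1 and only 13.7 in replicate 2. The second has a GATA site 36 bp from its summit and stood at 26.0 in replicate 1 and 25.8 in replicate 2. The peak that overlaps it on the right has the same score of 583 at a height of only 2.08, so that a high score does not by itself mark a high peak in these lists.

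**Figure D3:**
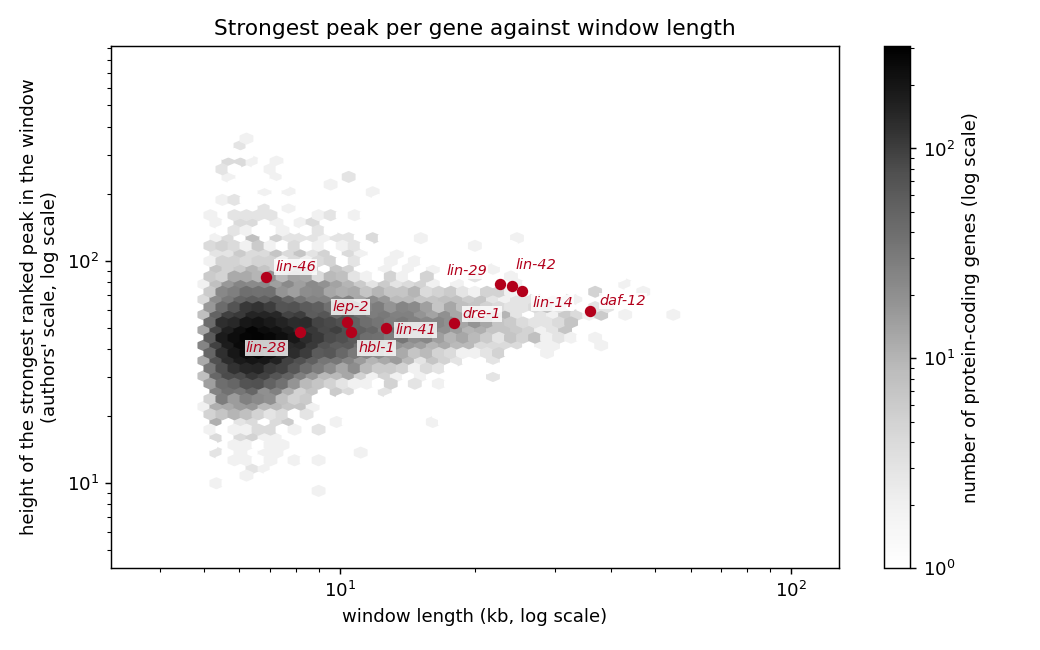
Height of the strongest ranked peak (authors' scale) against window length (kb), both on log axes, for all 18999 protein-coding genes with a ranked peak (grey, number of genes) and the 10 heterochronic genes (red). The lower edge of the grey cloud rises with window length, *lin-46* is high for its short window, and *lin-28*, *hbl-1* and *lin-41* lie among the bulk of genes.

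Ranked by strongest peak, the members were spread unevenly. The median percentile of their strongest peak among genes with a ranked peak was 79.0. Among genes with windows of 10000 bp or more, the median of the 8 members was 67.6. The 4 genes *lin-46* (97.0), *lin-29* (96.1), *lin-42* (95.8) and *lin-14* (94.6) formed an upper set. Below them came *daf-12* (84.99), *lep-2* (73.0), *dre-1* (71.3), *lin-41* (63.9), *hbl-1* (58.1) and *lin-28* (57.7). Among the genes with long windows *lin-29* (94.4), *lin-42* (93.8) and *lin-14* (92.1) stayed high, and *daf-12* was at 76.4. There *lep-2* (58.8) and *dre-1* (56.8) were near the middle, and *lin-41* (47.2) and *hbl-1* (40.4) were below it. Neighbours in the lower part differed by little, since heights ran from 53.0 for *lep-2* to 47.7 for *lin-28*, and the replicates did not keep that order: *lep-2* was in places 10 and 8 of replicates 1 and 2, *dre-1* in place 7 of both, and *lin-28* in places 3 and 9.

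The order was not the same in the replicates. In replicate 1 *lin-42* came first (46.0), then *lin-14* (42.1) and *lin-28* (37.2), with *lin-46* in place 6. In replicate 2 *lin-46* came first (48.0), then *lin-29* (46.4) and *lin-14* (40.2), with *lin-28* in place 9. The strongest place of the series list was also the strongest in replicate 1 for 6 members and in replicate 2 for 4, in both for *lin-29* and *lin-46*, and in neither for *dre-1* and *lin-41*. *lin-14* was in the upper 4 of all 3 lists, as was *lin-29*. In the other ranked list of the series the strongest place was the same for all 10. That list shares 99419 of its 109080 peaks with the first, so this is not a separate check.

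Elsewhere in the windows, the replicates' own strongest peaks mostly had low scores. In replicate 1 that of *dre-1* was in an intron (height 32.5, score 178), that of *lin-41* in the 3′ untranslated region (28.9, score 165) and that of *lep-2* in a coding exon (26.4, score 121). In replicate 2 that of *lin-41* was intronic (27.2, score 66), that of *lin-28* at the 3′ end of the gene (22.9, score 79) and that of *hbl-1* in a coding exon (20.2, score 48). None of these reached the score of 540. Among places other than the strongest of the series, the exception was *lin-14* in replicate 2, given above with a score of 556. The strongest peak of *lin-29* in replicate 2 (score 797) was at the strongest place of the series.

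**Figure D4:**
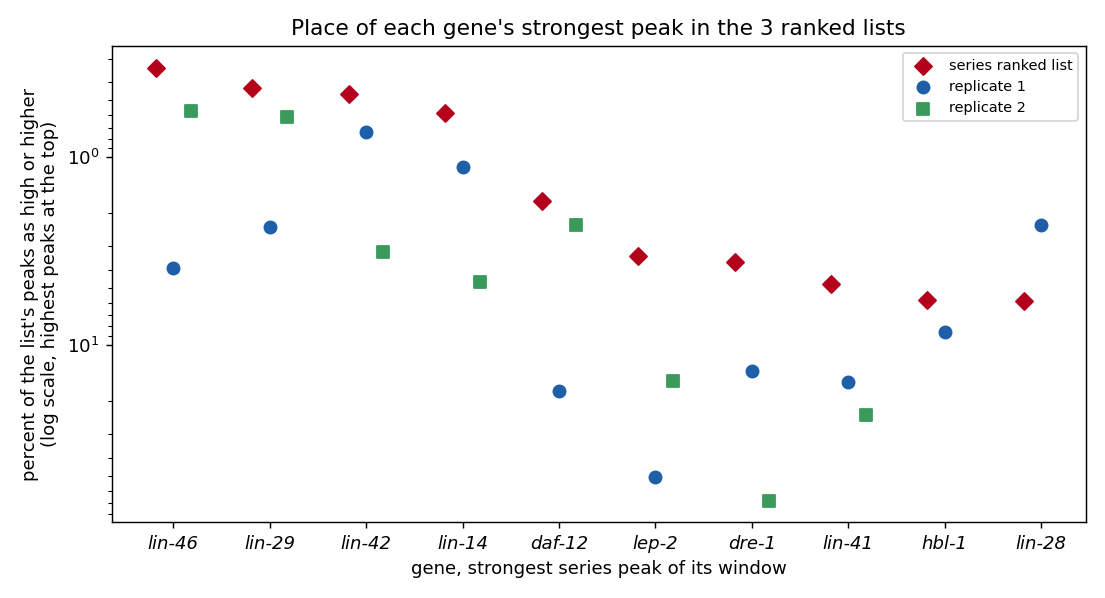
Share of each list's peaks (percent, log axis, highest peaks at the top) that are at least as high as the peak at each member's strongest series place, in the series list (diamonds), replicate 1 (circles) and replicate 2 (squares); *hbl-1* and *lin-28* have no replicate 2 peak at that place. The places of *lin-46*, *lin-29*, *lin-42* and *lin-14* lie within the top 4.63% of all 3 lists, that of *lep-2* falls to 50.7% in replicate 1 and that of *dre-1* to 67.8% in replicate 2.

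Of the 257 peaks, 86 (33.5%, exact 95% interval 27.7 to 39.6) overlapped a ranked peak of both replicates, against 26.6% of all ranked peaks. The interval treats peaks as independent, although neighbouring series peaks can overlap the same replicate peaks, so it is not a test. With overlapping peaks merged the share was 33.6%. No ranked peak of either replicate overlapped 77 of the 257 (29.96%, background 28.6%). Of the 12 peaks of score 540 or more 11 were overlapped in both, where 93.2% of all such peaks were, and the exception was that of *lin-28*. The overlapping *dre-1* peaks among the 12 matched the same replicate peaks. Over the 86 shared peaks, the log2 heights of the replicates gave a Pearson's r of 0.15, and Spearman's rho was 0.13. These values describe peaks that share the 2 libraries, and the relation is weak. Some of the 86 pairs repeat the same replicate peaks, and no value over all ranked peaks is given beside them.

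Most member peaks were not at starts. Of the 257 summits, 48.6% were in introns, which make up 53.4% of the windows, 72 (28.0%) were upstream of the gene (28.6% of the windows) and 46 (17.9%) were in coding exons (11.8%). The 3′ and 5′ untranslated regions held 11 and 3. Of the 12 peaks of score 540 or more, 8 were intronic, 3 upstream and 1 in a 3′ untranslated region. A promoter of the gene itself held 37 summits (14.4%), and a promoter of any gene held 59 (22.96%), against 26.4% of all ranked summits. For 209 summits (81.3%) the nearest start was that of the member.

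GATA factors are known to bind the sites in capitals above, and these were counted within 75 bp of every summit. They were present at 77 of the 257 summits (29.96%, exact 95% interval 24.4 to 36.0), against 26.0% of all ranked summits. At the 12 peaks of score 540 or more there were sites at 4, against 18.2% of all such peaks, and the share in the thresholded list was 15.5%. The 4 peaks of the members with a site lay in *lin-46*, *lin-42*, *daf-12* and *dre-1*. In the other series ranked list those of *daf-12* and *dre-1* did not reach 540. The median share of G and C around the summit was 41.1% for members and 38.4% for all ranked peaks, and 47.4% and 46.4% at scores of 540 or more; its part in the share of sites was not tested. A match is only a run of letters, and its absence from these windows says nothing about binding.

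Around these genes, a wider list of 20 protein-coding genes of the pathway had strongest peaks with a median height of 55.4, against 56.3 for the 10 genes and 45.4 for all genes. A thresholded series peak was present for 4 of 20 (5.47% of all genes, 8.14% of those with windows of 10000 bp or more) and a ranked peak of score 540 or more for 12 of 20 (18.3% and 28.7%). The median window of the wider list was 11102.5 bp. The highest peaks of the pathway were in this wider list and not among the 10 genes. The peak of *nhl-2*, a TRIM-NHL cofactor of microRNA silencing, had a height of 195 but was closer to the start of *tag-340*. That of *puf-9*, a Pumilio-type RNA-binding protein, had a height of 120 at 334 bp upstream of its start. That of *din-1*, a corepressor of DAF-12, had a height of 113 and lay at the small nucleolar RNA gene *F07A11.15*. These 3 genes also had a thresholded peak in each replicate, which none of the 10 had. The fourth gene, *sea-2*, had an intronic peak with a height of 77.2.

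Other genes of that list with a peak of score 540 or more were the Argonaute gene *alg-1* (64.7), its GW182-type partner *ain-1* (61.3), the casein kinase gene *kin-20* (70.6) and the nuclear receptor gene *nhr-23* (65.5), with the highest height of the window in parentheses. So were *lin-66* (57.8), *apl-1* (54.1), the exonuclease gene *xrn-2* (51.7) and *mab-10* (48.8), which encodes a cofactor of LIN-29. In *apl-1* that highest peak had a score of only 339, and the peaks that reached 540 were 31.1 and 17.0 high. The highest peak of *ain-1*, in a coding exon, scored 575 but only 105 in the other series ranked list, and replicate 2 had no ranked peak there. The conservative list held 3 other peaks of *ain-1*, with scores of 1000, 921 and 920, at 991, 791 and 581 bp upstream of its start. Among the small RNA genes of the clock, *lin-4* had a peak 109 bp upstream (height 63.2, score 772), inside the gene *F59G1.4*. The genes *mir-48* and *mir-241* share a peak (height 60.8) with a score of 632, which the conservative list holds with a score of 854. The strongest peaks of *mir-84* (55.7, score 451) and of the long non-coding RNA gene *lep-5* (50.5, score 479) stayed under 540. The gene *let-7* itself was not analysed here.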

How the data were processed

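Peak lists on ce11 came from 2 biological replicates of 1 group. Each replicate had a ranked and a thresholded list, and the series had 4 lists derived from both replicates, according to the descriptions deposited with them. The aligner and the peak caller were not given in the sources used here. Peak height is the signal value that the authors deposited, on an unstated scale, and was compared only within a list. The authors' deposited score rises as the IDR falls and stops at 1000. The deposited −log10 columns hold the q-value and, as −log10 values of the authors, the global IDR (log10 scale), from which the score was recomputed to within 1 for at least 99.99% of ranked peaks.

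Summits were assigned to windows of Ensembl release 115 genes (gene body and 5000 bp upstream). A replicate peak matched with an overlap of at least 1 bp. Promoters ran from 1000 bp before to 200 bp after a protein-coding start. Shares carry 95% Clopper-Pearson (exact) intervals, which cover only the number of peaks and treat them as independent. Named genes were all 10 members with their strongest peaks in each list and their peaks of score 540 or more, genes whose promoter or nearest start such a summit meets, genes of the wider list with such a peak, and the 2 genes above and below the highest member. Outside this rule, *mir-84*, *lep-5*, the genes sharing the *lin-46* peak (*hrg-9*, *pnn-1*) and genes that a summit lies in or near were named after their values were seen. The members and lists were chosen with earlier results of these data known. The code was tested on simulated peaks. Python 3.11.15 was used with scipy 1.17.1, numpy 2.4.6, matplotlib 3.10.9 and pandas 2.3.3.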

Additional observations from a re-analysis of the deposited data

How the results depend on the processing

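The count of 3 members with a thresholded peak was 0 in the list of either replicate alone, and 1 when peaks went to the nearest protein-coding start only. The count of 7 members with a score of 540 or more ranged from 0 to 2 in the lists of single replicates and was 3 at a score of 830 or more. The density of ranked peaks per 10 kb was 7.21 to 7.61 in the replicates' lists, 12.8 with overlapping peaks merged and 7.96 in the strongest part of the list (height at or above its median). The share of summits in a member's promoter was 8.56% with a promoter of 500 bp upstream to 100 bp downstream and 22.96% with promoters of any gene. The share with a GATA site was 19.5% within 50 bp, 48.6% within 150 bp and 63.8% with the 4 letters GATA. The share of peaks in both replicates was 22.6% when summits had to lie within 100 bp and 53.2% in the strongest part of the list. The median percentile of the strongest peak was 85.6 with 2000 bp upstream, 84.4 with the gene body only and 77.4 to 83.5 in the replicates' lists. Wider and narrower windows and motifs hold more or fewer positions by construction. Lists with fewer peaks, merged ones among them, likewise have a lower density by construction. The cause of the other shifts was not tested. The other 39 values of these results stayed within their interval, or within 1.5 times for a count. For the share of the list as high as each member's strongest peak, 44 of 70 values moved by less than the spread between the replicates and 26 by more. The strongest part of the list holds fewer peaks, so each of these shares rises there by construction. Shorter windows lose distant peaks by construction: with 2000 bp upstream the share went from 5.89% to 45.1% for *lin-28* and from 5.81% to 22.9% for *hbl-1*, and with the gene body only also from 0.335% to 12.2% for *lin-46*, from 4.78% to 14.2% for *lin-41* and from 3.37% to 5.11% for *lep-2*. In single replicates' lists the moved shares ran from 1.13% (*lin-14*) to 30.6% (*hbl-1*).

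No paired analysis was possible because there is 1 group. Leaving out a replicate means the authors' list of the other. With 2 replicates, no control and unknown depth, a place without a peak in a replicate's list was not detectable at that depth and is not shown to be unbound.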
